A study of Homo sapiens with 12 samples.

Results

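In MKL-1 Merkel cell carcinoma cells, 848 of 18657 genomic intervals that carried a peak of H3K4me3 in both vehicle-treated cultures (4.55%) met no H3K4me3 peak in either culture treated with EPZ011989, a small molecule that inhibits the histone methyltransferase EZH2. An interval was kept where the peaks of both vehicle libraries overlapped over 200 bp or more on chromosomes 1 to 22, and it was assigned to the vehicle-only set where no peak of either EPZ011989 library shared a base with it. These 848 intervals were short and weak: their median length was 329.5 bp, against 1733 bp for the 17809 intervals that met an EPZ011989 peak, and they held 314.651 kb, 0.889% of the 35.3876 Mb of vehicle interval sequence. Most lay inside genes, away from gene starts, and few carried H3K27me3 in the vehicle cultures. The members were chosen by the H3K4me3 peak calls themselves, present in both vehicle lists and absent from both EPZ011989 lists, so their height, width and loss are given as a description with no test.

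H3K4me3 is trimethylation of lysine 4 on histone H3, a mark written by the SET1 and MLL enzyme complexes and found in tall, broad peaks at the starts of active genes and of genes held ready for activity. H3K27me3, trimethylation of lysine 27, is written by EZH2 within Polycomb repressive complex 2 and marks genes kept silent, and both marks can lie together at the starts of developmental genes. Weak H3K4me3 also occurs at enhancers and inside transcribed genes.

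The assay was CUT&RUN: a nuclease tethered to a chromatin-bound antibody releases the DNA beneath it. MKL-1, an established cell line, was grown for 6 days with 3 µM EPZ011989 or with its carrier, 1% ethanol, and given fresh medium on day 3. Antibodies to H3K27me3, to H3K4me3 and control IgG, all diluted 1:100, were used in each treatment. E. coli DNA was added as a spike-in, and there were 12 libraries in 6 groups of 2. Both treatments were carried out on a single line, so the spread within a group covers repeated treatment and library preparation and not different tumours.

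Few of these intervals held a gene start listed in the promoter table: 17 such starts fell inside 15 of the 848. Inside the 17809 other vehicle intervals fell 15432. The table gave a start for 15101 of 19126 protein-coding genes and 11145 of 37630 other genes, so starts of the remaining genes could not be counted. At all 8 protein-coding starts the interval holds the start itself. The 250 bases before 4 of the 8 are shown, the first 4 in alphabetical order. They include the lowest GC content among the 8, 46.4% at CACNB2, and the highest, 70.8% at CAPN14. The sequences are from the RefSeq promoter table on GRCh38.p14, read 5′ to 3′ on the gene's strand, in lower case, with each CG pair and each CAGCTG in capitals. ACSL1, a long-chain acyl-CoA synthetase, is at chr4:184805554-184805803 on the minus strand. ANK2, the membrane scaffold ankyrin-B, is at chr4:113049403-113049652 on the plus strand. CACNB2, a subunit of voltage-gated calcium channels, is at chr10:18340459-18340708 on the plus strand. CAPN14, a calpain protease, is at chr2:31233958-31234207 on the minus strand.
ACSL1: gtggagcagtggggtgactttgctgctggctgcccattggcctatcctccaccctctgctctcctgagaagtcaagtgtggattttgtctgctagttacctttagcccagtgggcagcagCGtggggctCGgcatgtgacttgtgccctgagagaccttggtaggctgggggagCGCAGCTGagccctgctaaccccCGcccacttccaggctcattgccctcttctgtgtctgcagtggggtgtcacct
ANK2: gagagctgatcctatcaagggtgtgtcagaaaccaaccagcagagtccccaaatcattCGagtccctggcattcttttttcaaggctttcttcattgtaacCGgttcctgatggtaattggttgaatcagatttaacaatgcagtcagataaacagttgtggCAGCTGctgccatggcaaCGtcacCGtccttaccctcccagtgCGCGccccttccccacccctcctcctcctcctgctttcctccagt
CACNB2: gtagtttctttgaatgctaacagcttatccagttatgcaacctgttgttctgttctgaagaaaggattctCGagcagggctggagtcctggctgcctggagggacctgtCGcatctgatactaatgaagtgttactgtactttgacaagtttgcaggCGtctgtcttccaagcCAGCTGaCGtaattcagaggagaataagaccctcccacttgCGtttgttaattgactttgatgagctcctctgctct
CAPN14: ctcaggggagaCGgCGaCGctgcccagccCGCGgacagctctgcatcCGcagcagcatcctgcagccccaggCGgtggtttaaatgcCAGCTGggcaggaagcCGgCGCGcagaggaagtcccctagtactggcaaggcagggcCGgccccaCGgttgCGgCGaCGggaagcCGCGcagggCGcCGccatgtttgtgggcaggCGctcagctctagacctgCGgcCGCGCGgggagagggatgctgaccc
The first 3 hold 4, 6 and 5 CG pairs in 250 bases, and CAPN14 holds 24. Each holds CAGCTG once. Among the protein-coding starts not shown, DAND5 holds CAGCTG 2 times in the 250 bases. GLYATL1, LINC02210-CRHR1 and MATN4 do not hold it.

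The ACSL1 interval (chr4:184805478-184805931, 454 bp) had 9 fragments at the peak summit in vehicle replicate 1 and 11 in replicate 2, and the nearest EPZ011989 peaks were 8701 and 9086 bp away in replicates 1 and 2. The ANK2 interval (chr4:113049601-113049977, 377 bp) had 6 and 13 fragments, with EPZ011989 peaks 66079 and 66276 bp away. The CACNB2 interval (chr10:18340591-18341322, 732 bp) had 10 and 12 fragments, with EPZ011989 peaks 43871 and 43403 bp away. All 3 had no H3K27me3 peak in either vehicle library. The CAPN14 interval (chr2:31233801-31234072, 272 bp) had 9 and 5 fragments, and a vehicle H3K27me3 peak covered 201 bp of it in replicate 2 and none of it in replicate 1. Its EPZ011989 H3K4me3 peaks were 94864 and 94679 bp away.

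Over the 300 bases from 250 before to 50 after each start, the 17 starts in members had a median GC content of 58.0% and a median of 9 CG pairs. The 15432 starts in the other vehicle intervals had medians of 66.7% and 28, the 18276 starts in no vehicle interval had medians of 49.0% and 4, and all 33725 promoters in the table had medians of 58.7% and 14. In CG pairs the members' starts therefore lay between starts with a shared peak and starts with none. A set of 5 short motifs were searched on both strands of the same windows. CCAAT was in 7 of the 17 (41.2%, against 34.4% of all promoters), TATAAA in 1 (5.88%, against 11.6%), GGGCGG in 4 (23.5%, against 45.0%), CAGCTG in 11 (64.7%, against 18.0%) and CACGTG in none (against 7.18%). Windows and not sites were counted, matches of different motifs were allowed to overlap, and 2 pairs of the 17 starts share an interval. A match is a description of these letters and not of a bound factor.

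Peak height was read from the fold that the authors' peak caller gave each peak. Within each H3K4me3 list, all folds fell on whole numbers of summit fragments over a single background, within 0.01 fragments, so the number of fragments piled up at each summit could be recovered. The background was 0.572 and 0.857 fragments per base in vehicle replicates 1 and 2, and 1.48 and 1.24 in EPZ011989 replicates 1 and 2. The EPZ011989 libraries thus had the higher background. The weakest listed peak had 4 and 5 fragments in the vehicle lists and 7 and 6 in the EPZ011989 lists. The lists held 22102, 23193, 22522 and 20532 peaks in the same order.

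Members' peaks had a median of 7 summit fragments in vehicle replicate 1 and 9 in replicate 2, with quartiles of 6 to 8 and 7 to 10. The other vehicle intervals had medians of 52 and 58. On the fold scale the members' medians were 5.09 and 5.38. Ranked within its own list, the median member stood at percentile 19.9 in replicate 1 and 24.4 in replicate 2, against 60.2 and 62.5 for the other intervals. In both lists 790 of the 848 (93.2%) ranked below the 50th percentile, 56 reached it in 1 list, and 2 reached it in both. Because a fold belongs to the whole peak, a tall summit can lie outside the interval itself: the summit was inside for 712 members in replicate 1, 684 in replicate 2 and 573 in both. Of the 56 members tall in 1 list only, 53 had an EPZ011989 peak within 1000 bp.

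**Figure D1:**
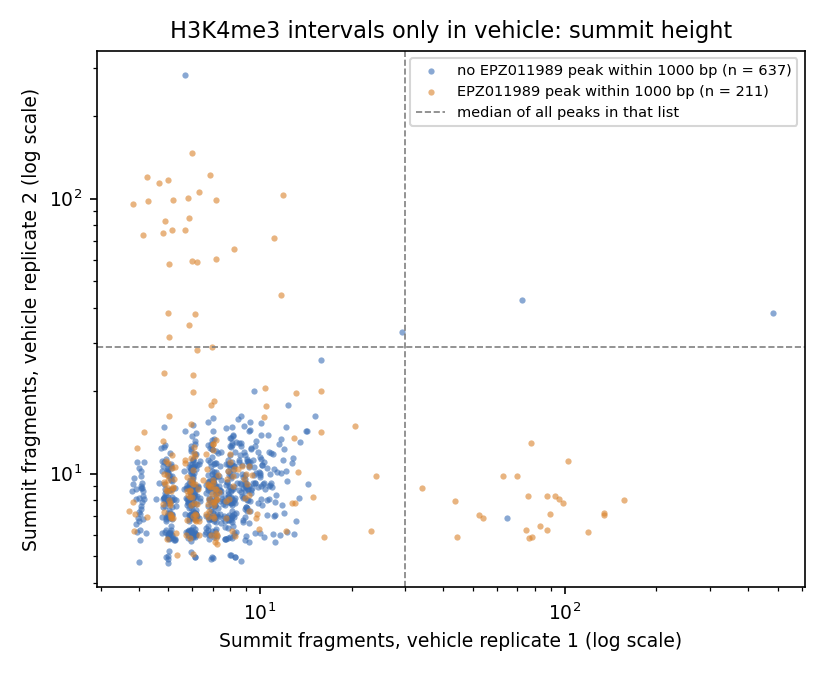
Summit fragments of the peak holding each vehicle-only interval, in vehicle replicate 1 (x axis, log scale) and replicate 2 (y axis, log scale). Each point is 1 of the 848 intervals, slightly jittered and coloured by distance to the nearest EPZ011989 peak, and dashed lines mark the list medians of 30 and 29 fragments. Most points lie at the lower left, and most of those past 1 dashed line have an EPZ011989 peak nearby.

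When all 18657 vehicle intervals were split into 10 equal bins by their mean fold percentile over both lists, 577 of the 1866 in the weakest bin were vehicle-only (30.9%). The share was 10.3% in bin 2 (193 intervals), 2.30% in bin 3 (43) and 1.07% in bin 4 (20). The 6 stronger bins held 15 members together, of which 11 were in bin 5 and 3 in bin 6. Bins 1 and 2 thus held most of the members. Height decides whether a peak is listed at all, so this order is a description of the rule's choice.

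Only 2 members passed the 50th percentile in both lists. The interval at CYB561A3, a gene for a cytochrome b561 family protein (chr11:61356491-61356752, 262 bp), had 492 summit fragments in vehicle replicate 1 and 38 in replicate 2. Its EPZ011989 gaps were 3642 and 4192 bp, and a vehicle H3K27me3 peak covered all 262 bp in replicate 1 and none in replicate 2. The interval inside STEAP3, which encodes an endosomal iron reductase (chr2:119245581-119245857, 277 bp), had 71 and 40 fragments. It was the single member that met an IgG peak: both vehicle IgG lists covered all 277 bp, an H3K27me3 peak covered 276 bp in vehicle replicate 1 and in EPZ011989 replicate 2, and the count of members without it was 847. The IgG lists were small, with 37 and 4 peaks in vehicle and 12 and 9 with EPZ011989, and no other member met one.

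Other tall members were tall in 1 library. The interval at LUC7L2, which encodes a U1 snRNP-associated splicing factor, had 6 fragments in replicate 1 and 284 in replicate 2 over 272 bp, with EPZ011989 peaks 42276 and 42287 bp away. The interval inside CCT8, a subunit of the CCT chaperonin, had 164 and 8, and its replicate 1 peak was 3919 bp wide with the summit outside the 450 bp interval. Its EPZ011989 peaks lay 375 and 406 bp away. At MAPKAPK5, a stress-activated protein kinase gene, the values were 104 and 11 fragments over 715 bp, with EPZ011989 peaks 12 and 117 bp away. At CCT8 and MAPKAPK5 the vehicle-only bases adjoin a peak that is present in both conditions.

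The members ranged from intervals beside an EPZ011989 peak to intervals far from any. The median gap to the nearest EPZ011989 peak was 8596.5 bp in replicate 1 and 11717 bp in replicate 2. An EPZ011989 peak of either library lay within 1000 bp of 211 members (24.9%, exact 95% Clopper-Pearson interval 22 to 27.9) and within 200 bp of 77. At the other end, 375 (44.2%) had none within 10000 bp and 93 (11.0%) none within 100000 bp. For 131 members (15.4%) the interval was held by a vehicle peak that met an EPZ011989 peak elsewhere along its length.

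The longest member was inside METTL15, a mitochondrial rRNA methyltransferase gene (chr11:28116088-28118447, 2360 bp), with 13 and 20 summit fragments and EPZ011989 peaks 853 and 2220 bp away. It is one of the intervals whose vehicle peak met an EPZ011989 peak outside it. The second longest, inside the kinase gene MAP4K4 (chr2:101817673-101818870, 1198 bp), had 10 and 13 fragments and stood 35988 and 116415 bp from an EPZ011989 peak. Next came 2 intervals inside CSMD3, a large transmembrane protein gene, of 1177 and 1129 bp. They were followed by one inside LIN28B, which encodes an RNA-binding repressor of let-7 microRNA processing (chr6:104945500-104946606, 1107 bp), with 12 and 102 fragments. At the 200 bp threshold stood an interval inside CLASP1, a microtubule-binding protein gene (chr2:121562718-121562917), with 10 and 8 fragments, and an intergenic interval with 5 and 7. Just below it, at 199 bp and 198 bp, were intervals labelled LARS2 and RPS13P7, and 256 intervals shorter than 200 bp met the rule in every other respect.

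Gene position differed from that of the shared intervals. The window used was 2500 bp around a protein-coding start, or around either end of the annotated gene where no start was taken from the promoter table, which was used for 15101 of 19126 protein-coding genes. Of the members, 88 (10.4%, exact 95% interval 8.41 to 12.6) met such a window, against 64.8% of all vehicle intervals and 67.4% of the other intervals. A further 77 (9.08%) met the window of another gene type. Inside a protein-coding gene but outside the windows lay 424 (50%), in 385 different genes, against 15.3% of the other intervals. Inside another gene lay 62 (7.31%), and outside any gene 197 (23.2%), against 7.70% of the others. The other intervals of the weakest bin of 10, which are closest in height, met a coding window in 19.9%, lay inside a protein-coding gene in 44.4% and outside genes in 19.9%. In all 3 classes they stood nearer to the members than the other intervals as a whole did. The members of that bin alone met a coding window in 7.45%, lay inside a protein-coding gene in 51.6% and outside genes in 23.6%.

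**Figure D2:**
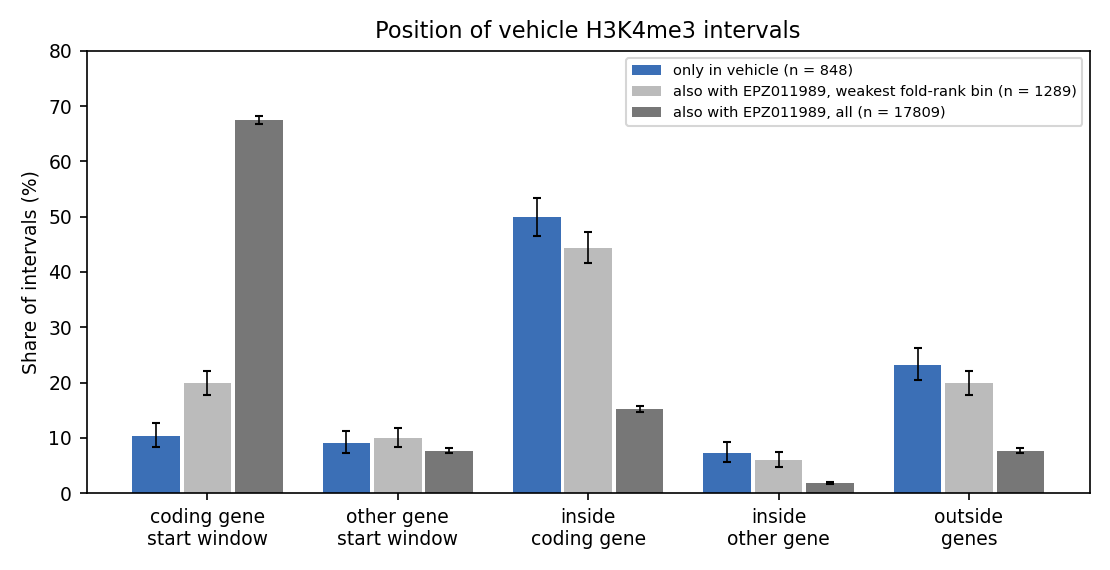
Share of vehicle H3K4me3 intervals (y axis, percent) in 5 position classes (x axis), for the vehicle-only intervals and the comparison sets named in the legend. Bars are shares and error bars are exact 95% binomial intervals, which cover counting error only. The vehicle-only intervals are at 10.4% in coding start windows and 50% inside coding genes.

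The share of members in a coding window was 22.3% of the 211 within 1000 bp and 6.44% of the other 637. The median distance from a member to the nearest coding start or end was 21242.5 bp. By chromosome, the share of vehicle intervals that were vehicle-only ran from 2.15% (27 of 1255, exact 95% interval 1.42 to 3.11) on chromosome 19 to 6.77% (21 of 310, 4.24 to 10.2) on chromosome 18.

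A member lay in the window of 103 of the 19126 protein-coding genes (0.539%), 73 by their start and 30 by a gene end. For 60 of them an EPZ011989 peak was within 1000 bp of the member, and for 43 there was none. In 21 genes there was none within 10000 bp in either library. Among those 21, named after their values were seen, are TRPC4, CAPN14, EHD3, KRT6A, IL22, NUTM2E, PLEKHS1, ANK2, ANKRD2, CD79B, CACNB2, ZNF124, SMG6, LINC02210-CRHR1, GLYATL1, MYMK, MATN4, RBPJL, CA7 and TPCN1. CAPN14 and EHD3 share an interval, as do MATN4 and RBPJL.

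Some of these genes are best known in other tissues. TRPC4 encodes a cation channel, and its interval (chr13:37870128-37870385, 258 bp, 356 bp from the start) had 6 and 8 fragments and EPZ011989 peaks 478177 and 478058 bp away. MYMK encodes myomaker, a protein of muscle cell fusion, and its interval had 6 and 7 fragments over 372 bp near a gene end. ANKRD2, a muscle ankyrin repeat protein gene, had 6 and 7 fragments over 391 bp. CD79B, a part of the B cell receptor, had 12 and 8 over 244 bp that include a gene end. KRT6A, a keratin of stressed epidermis, had 6 and 12 over 283 bp near a gene end, and IL22, a cytokine of lymphocytes, had 10 and 12 over 443 bp near a gene end. RBPJL, a transcription factor of pancreatic acinar cells, had 5 and 8 over 250 bp, and a vehicle H3K27me3 peak covered those 250 bp in replicate 2 alone. All of these heights stood at percentile 35.9 of their list or lower, and expression was not measured.

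ZNF124, a zinc finger gene, had 2 separate members in its window. The intervals had 8 and 9 fragments over 315 bp, and 14 and 15 fragments over 255 bp, with EPZ011989 peaks between 38595 and 39865 bp away. SMG6, an endonuclease of nonsense-mediated RNA decay, had 9 and 9 fragments over 943 bp. DAND5, a secreted inhibitor of Nodal, held its start inside a 720 bp interval with 13 and 11 fragments, and EPZ011989 peaks were 3518 and 3605 bp away. At these 3 genes the 2 vehicle replicates differed by at most 2 fragments.

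Lists of genes of known function held few members. Of 20 Merkel cell and neuroendocrine genes in the annotation, 17 had a vehicle H3K4me3 interval in their window and none had a vehicle-only one. The same was true of the 12 PRC2 and H3K27 demethylase genes in the annotation, all with a vehicle interval and 0 vehicle-only, and of 15 genes of H3K4 methyltransferase complexes, of which 14 had an interval and 0 a vehicle-only one. All 27 housekeeping genes had an interval and 0 had a vehicle-only one in the window, although POLR2A and PSMB2 held one further inside the gene. Markers of other tissues had a few: MYMK and ANKRD2 among 28 skeletal muscle genes, of which 7 had an interval; CD79B among 25 lymphoid and myeloid genes, of which 6 did; KRT6A among 19 keratinocyte genes, of which 3 did; and RBPJL and CA7 among 20 pancreas and gut genes, of which 3 did. CA7 encodes a carbonic anhydrase. Inside the gene itself, MYH3 of the muscle list also held a member, as did CD79B, RBPJL and CA7. The background for windows is the 0.539% of all coding genes above, and none is given for members inside a gene. With 0 to 2 genes a list, these counts describe the lists and nothing more.

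Vehicle H3K27me3, which the rule did not use, was found at a smaller share of the members than of vehicle intervals as a whole. A peak of H3K27me3 in both vehicle libraries met 51 members (6.01%, exact 95% interval 4.51 to 7.83), against 26.9% of all vehicle H3K4me3 intervals and 27.9% of the others. By single library, 74 members (8.73%) met one in vehicle replicate 1 and 78 (9.20%) in replicate 2, against 30.2% and 35.5% of all intervals. In neither library was there one at 747 members (88.1%). Short intervals have less room to meet a peak, so covered bases were counted too: H3K27me3 covered 6.73% and 7.13% of the members' bases in replicates 1 and 2, against 15.1% and 18.5% of the bases of all vehicle intervals.

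The lower share also held among weak intervals of near-equal length. In the weakest of the 10 height bins, 44 of 577 members (7.63%, exact 95% interval 5.60 to 10.1) had H3K27me3 in both vehicle libraries, against 314 of 1289 other intervals (24.4%, 22 to 26.8), and the median lengths were 312 and 350 bp. In bin 2 it was 7 of 193 (3.63%) against 26.1%, and none of the 78 members in higher bins had it. The nearest vehicle H3K27me3 peak was a median of 58223 bp from a member in replicate 1 and 53531.5 bp in replicate 2, against 15421 and 8319 bp for the other intervals. Regions are not replicates, and 1 pair of vehicle libraries gave all of these calls, so the intervals cover counting error only.

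**Figure D3:**
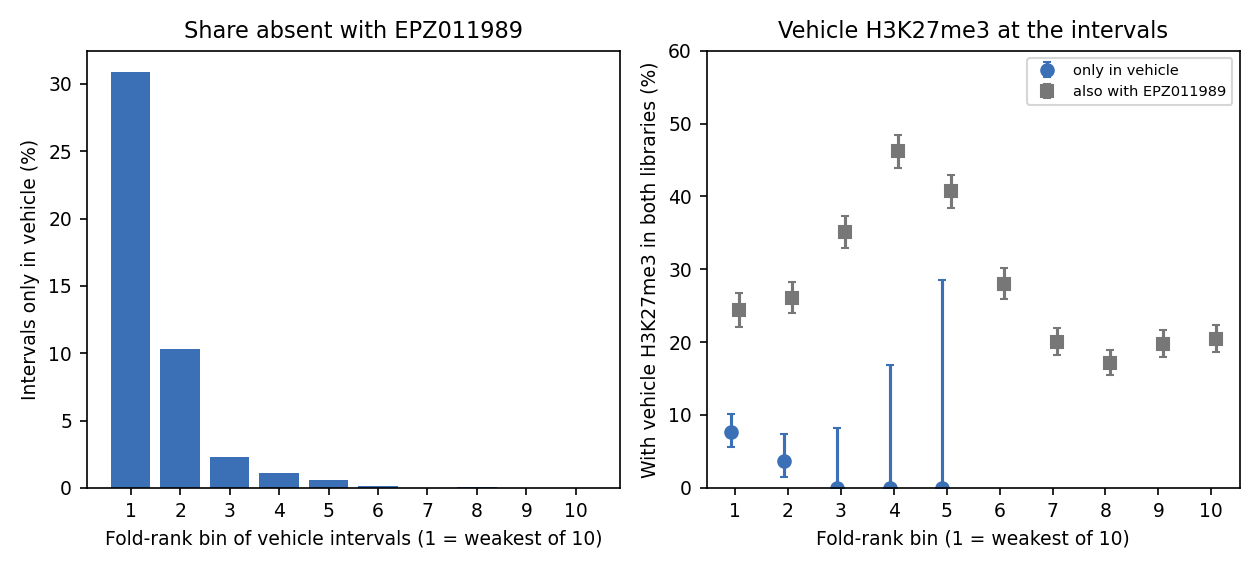
Left, the share of vehicle H3K4me3 intervals that were vehicle-only (y axis, percent) by fold-rank bin (x axis, 1 is the weakest of 10), falling from 30.9% in bin 1. Right, the share with H3K27me3 in both vehicle libraries, for vehicle-only intervals and for those also found with EPZ011989, with exact 95% binomial intervals for counting error only; in bin 1 the values are 7.63% and 24.4%.

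Of the 51 members with vehicle H3K27me3, H3K27me3 covered the whole interval in both vehicle libraries at 31. That is 3.66% of the 848 members, against 13.2% of all vehicle H3K4me3 intervals. All 51 met an H3K27me3 peak in neither EPZ011989 library, where the background over all vehicle intervals for the same pattern is 26.8%, almost the whole of the 26.9% above. Over all 848 members, H3K27me3 covered 21174 and 22429 bp in vehicle replicates 1 and 2, and 0 and 276 bp in EPZ011989 replicates 1 and 2. The 276 bp are all at STEAP3. The vehicle pair and the EPZ011989 pair do not overlap. The means were 21801.5 ± 887 bp (SD, n = 2) and 138 ± 195 bp (SD, n = 2), and the difference had an exact two-sided permutation p of 0.333, the smallest that 6 labellings allow. The deposited EPZ011989 H3K27me3 lists held 361 and 22 peaks on these chromosomes, against 40186 and 43634 in vehicle, so H3K27me3 peaks were few throughout the EPZ011989 lists and not at the members alone.

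Of these 51 intervals, 2 met the window of a protein-coding start. At IGFBP6, which encodes an insulin-like growth factor binding protein (chr12:53099200-53099521, 322 bp), vehicle H3K27me3 covered all 322 bp in both replicates, the H3K4me3 peaks had 4 and 7 fragments, and EPZ011989 H3K4me3 peaks were 673 and 348 bp away. At TRPC4 it covered all 258 bp in both. The rest were inside coding genes (18), outside genes (16), at starts of other gene types (9) or inside other genes (6). Examples inside genes are GLIS1, a zinc finger transcription factor (501 bp, covered in full in both, 7 and 8 fragments), EBF3, a transcription factor of neural development (292 bp, in full in both, 6 and 9 fragments), and IGDCC3, an immunoglobulin superfamily gene (500 bp, in full in both, 8 and 8 fragments). The H3K27me3 peaks at the 51 members had median widths of 2863 bp (269 to 125017) in replicate 1 and 4056 bp (271 to 224229) in replicate 2. The medians over all listed peaks were 1305 and 1381 bp. A wide peak is likelier to meet an interval, so the list medians are not a matched background. Widths at the other intervals with H3K27me3 were not compared, so whether these widths are particular to the members was not tested.

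Members near an EPZ011989 H3K4me3 peak carried vehicle H3K27me3 in 1.42% (exact 95% interval 0.294 to 4.10), and members more than 1000 bp away in 7.54% (5.61 to 9.87). The opposite set was made the same way: 696 of 17684 intervals shared by both EPZ011989 H3K4me3 libraries (3.94%) met no vehicle H3K4me3 peak. Of those, 429 (61.6%, exact 95% interval 57.9 to 65.3) met vehicle H3K27me3 in both libraries, against 31.2% of all EPZ011989 intervals, and 44.4% met a coding window. Their median length was 403.5 bp. The vehicle-only and EPZ011989-only sets thus lay on opposite sides of their backgrounds for vehicle H3K27me3, at 6.01% against 26.9% and at 61.6% against 31.2%.

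Neighbouring members were joined into groups. Joining neighbours no more than 200 kb apart, a distance set after the data were examined, gave 697 groups. Of these, 582 were single members and 7 held 4 or more. The other 266 members shared a group. Whether members are more or less grouped than vehicle intervals as a whole was not tested. The genes with the most members inside were CSMD3 with 5, CDKAL1 and LIN28B with 4 each, and CADM2 and CRTAC1 with 3 each. These counts were not set against gene length or against the number of all vehicle intervals in each gene. CDKAL1 encodes a tRNA-modifying enzyme, CADM2 a neuronal adhesion protein, and CRTAC1 a secreted extracellular matrix protein.

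Across these 7 groups, H3K4me3 peaks of both conditions lay between the members. Over the 22.652 kb of the group on chromosome 7 (chr7:9179765-9202416, 5 members, no gene), H3K4me3 peaks covered 19126 and 18641 bp in vehicle and 13517 and 11494 bp with EPZ011989. Over the 23.641 kb group in LIN28B (chr6:104945500-104969140, 4 members) the values were 11421 and 12008 bp against 8420 and 7201 bp. At CSMD3 (4 members, 124.291 kb) they were 32886 and 32825 bp against 25044 and 18249 bp. The 2 vehicle values exceeded the 2 EPZ011989 values in 6 of the 7 groups. The exception was the group on chromosome 15 at CCDC33, with 31417 and 31425 bp against 31676 and 26718 bp. That group is also the only one of the 7 in which vehicle H3K27me3 covered any base, 18975 and 19638 bp. Since members are bases without an EPZ011989 peak by choice, these differences are a description.

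**Figure D4:**
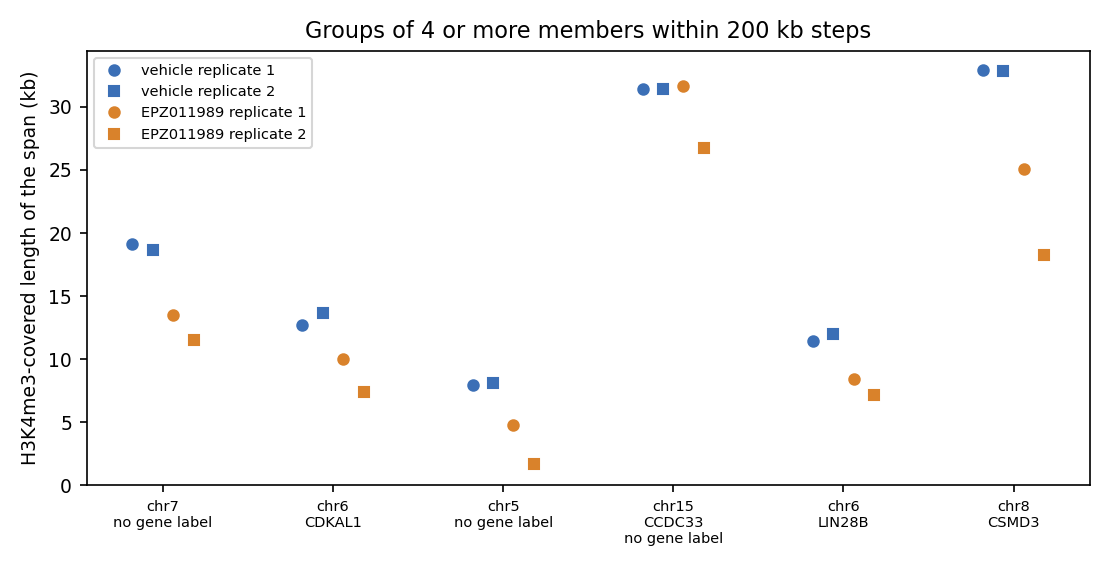
H3K4me3-covered length (y axis, kb) of 6 of the 7 groups of 4 or more vehicle-only intervals (x axis, by chromosome and gene), 1 marker for each H3K4me3 library. The vehicle markers are above both EPZ011989 markers in 5 of the groups shown, and overlap them in the chromosome 15 group.

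The count of members depended on single libraries. It was 2334 when EPZ011989 replicate 1, the library with the highest background, was left out, and 997 without EPZ011989 replicate 2. It was 3793 without vehicle replicate 1 and 3040 without vehicle replicate 2, since each of these drops a requirement that a peak be found again. The median member's 7 and 9 fragments are close to the lowest listed peaks of 4 and 5, and the part of counting error in the set was not tested. The count was 373 when a −log10 q of at least 5 was asked of all H3K4me3 lists, and 178 when it was asked of the vehicle lists alone.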

How the data were processed

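CUT&RUN was measured in 12 libraries of MKL-1 cells, and 1 peak list per library on hg38 was used. The submitters' processing notes list MACS2 (2.1.1.20160309), Bowtie2 (2.2.9), SAMtools (0.1.19) and FastQC. Their roles, the calling thresholds, the control library, duplicate handling and any use of the spike-in are not given in the sources used here. Every deposited peak has a score, a fold (the ratio of summit pileup to background), a −log10 p and a −log10 q. Peaks were listed per library and not on pooled samples. Read depth is unknown: the single background per list stands in for it.

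From these lists, intervals were intersected on chromosomes 1 to 22 with Python 3.11.15, numpy 2.4.6, pandas 2.3.3, scipy 1.17.1 and matplotlib 3.10.9, with a shared base (1 bp) as overlap. Summit fragments were recovered as fold times (background + 1), minus 1, and the deposited −log10 p was recomputed to within 0.000103 for the part of each H3K4me3 list that was checked (19694 of 22102 and 19581 of 23193 peaks in vehicle, 13453 of 22522 and 19186 of 20532 with EPZ011989). The fold rank is the percentile within the list. Intervals on shares are exact Clopper-Pearson 95% intervals for counting error. Covered bases of H3K27me3 were compared with an exact permutation test over libraries. Gene positions come from the RefSeq table of GRCh38.p14. Scripts were tested on simulated data. The replicate numbers in the labels are not stated to mark a shared culture or day beyond repeat treatment, so the main comparison has no block. Intervals were named by rule: the 12 longest, the 8 of highest mean fold percentile, those with H3K27me3 in both vehicle libraries at a coding gene, the 2 shortest and the 2 longest below 200 bp, any at an IgG peak, and listed genes with a member in their window; the text describes part of these. Genes with the start inside a member, genes far from EPZ011989 peaks, groups, and the GLIS1, EBF3 and IGDCC3 examples were chosen after their values were seen. The members, gene lists and tests were chosen with earlier results of these data known. Alternatives covered replicates left out, interval length, q thresholds, overlap and window size. Some named items are not reported here.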

Additional observations from a re-analysis of the deposited data

How the results depend on the processing

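The number of vehicle-only intervals (848) was 114 with a minimum length of 500 bp, 373 with a −log10 q of at least 5 in all H3K4me3 lists, 178 with it in the vehicle lists only, and 997 to 3793 with 1 H3K4me3 library left out. The share with vehicle H3K27me3 (6.01%) was 3.51%, 2.95% and 2.81% under the first 3 of these, with no matching all-interval share given. It was 1.65% with the stricter q for H3K27me3 (against 13.0% of all vehicle intervals), and 6.12% to 9.20% with 1 library left out. The 9.20% asks for a peak in vehicle H3K27me3 replicate 2 alone, where the share of all vehicle intervals is 35.5%. The median fold percentile (20.5) was 23.8 at 500 bp and 12.3 to 24.7 with 1 library left out. With the stricter q in either form it was 10.0, a rank within vehicle lists cut at that q. That value is not on the scale of 20.5, because the weakest listed peaks had been removed. The share in a coding window (10.4%) was 7.89% at 500 bp, 6.44% with no EPZ011989 peak within 1000 bp, 2.83% and 21.7% with windows of 1000 and 5000 bp, and 10.9% to 13.8% with 1 library left out. Matching all-interval shares are not given for the coding-window settings either. The cause of these shifts was not tested, except that fewer required libraries or longer windows admit more intervals by construction. Lower minimum length (1005), an EPZ011989 peak covering 50% or more of the interval (1090), a 1000 bp gap (637) and leaving out the IgG member (847) kept the count within 1.5 times. The last was chosen after seeing the data, as were the comparison within the weakest height bin and the split at 1000 bp.

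The H3K27me3-covered length of the members was lower with EPZ011989 under every alternative run: the difference of -21663.5 bp ran from -22291 to -21036 bp with 1 library left out and was -5697.5 bp with the stricter q. With the replicate number as a block the difference was -21663.5 bp and the exact permutation p was 0.5, the smallest that pairing 2 libraries allows. The exact permutation test cannot pass 0.05 with 2 libraries a group. Peaks near the lowest listed height limit every count, and read depth is unknown.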
